A study of Mus musculus with 24 samples.

Results

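The genes described here make, sense, move and export sterols in macrophages: 34 genes were listed by symbol, 28 of them had a probe named for them on the array, and 26 lay above the floor and were tested, of 8201 features tested in all. The list was drawn from knowledge of the pathway, with earlier results of these data known. It holds enzymes of the mevalonate pathway, enzymes from squalene onward, the SREBP control genes, genes of sterol transport and oxysterol synthesis, and the LXR receptors with their efflux and degradation targets. Each gene was read by 1 probe, the one with the highest mean over all arrays. Acat2, Mvk, Fdft1, Npc1, Soat1 and Nr1h2 matched no probe and were not analysed here.

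Cells build cholesterol from acetyl groups through mevalonate and squalene. When membrane sterol is low, Scap carries the SREBP transcription factors (encoded by Srebf1 and Srebf2) out of the endoplasmic reticulum, and they turn on the synthesis enzymes. Insig proteins hold them back when sterol is plentiful. Oxysterols, hydroxylated cholesterol made by enzymes such as Ch25h, strengthen that hold and also activate the LXR receptors, which turn on exporters such as Abca1 and Abcg1. In macrophages these circuits set how much cholesterol is kept or passed on, and they are known to meet the response to bacterial products.

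Transcripts were measured on 24 Illumina arrays of macrophages labelled as bone marrow cells of female C57BL/6 mice aged 6 weeks. There were 8 groups of 3 arrays: control cells and cells given a BET bromodomain inhibitor, each with no lipopolysaccharide (LPS, 0 h) and at 1, 2 and 4 h of LPS. BET proteins read acetylated lysines on chromatin, and the study asked what their inhibition does to LPS-induced expression. The design text calls the replicates biological. The labels name neither the compound nor its dose, the LPS dose or any pre-treatment, and all 8 groups share strain, sex, age and tissue.

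Values are the authors' deposited processed levels, read as log2 intensity. A change is the log2 difference between 2 group means of 3 arrays each, given ± its standard error, with limma's p adjusted by Benjamini-Hochberg over 8201 features. A gene was called when the adjusted p was under 0.05. "Higher", "rose" and similar words are used only of called genes, and the share of all features called in the same comparison and direction is given as the background. The floor, 6.455 log2 units, was set from probes of olfactory and vomeronasal receptors. Of the 26 tested members, 24 lay above it on every array, Tm7sf2 on 23 arrays and Sc5d on 17. Levels of different genes are not compared, since each probe has its own brightness. In bulk samples, fewer cells of a type and less RNA per cell cannot be told apart.

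All 9 macrophage markers with a probe lay above the floor, with a mean level of 11.527 to 11.925 per group. With the inhibitor at 4 h, 2 of the 9 were called lower, beside 10.2% of all features. None of the T cell, B cell and red cell markers with a probe lay above the floor (6, 5 and 3 genes). Of the neutrophil markers 2 of 8 did (Mpo and S100a8) and of the stromal markers 1 of 8 (Dcn). No gene of these last lists was called at 4 h for LPS or the inhibitor. The root mean square deviation from the group mean was 0.199 to 0.246 for arrays of replicate 1, 0.116 to 0.173 for replicate 2 and 0.138 to 0.185 for replicate 3. Same-numbered arrays deviated together (correlations of 0.106 to 0.847), while arrays of different numbers ranged from -0.859 to 0.358. Deviations within a group cancel out, and arrays of 1 group have different numbers, so the low end of the second range is partly set by the calculation. No label says that the numbers pair the samples. Counts with the replicate number as a block are therefore given too, with their own share of all features. The printed standard errors are from the fit without the block.

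In control cells members were called in both directions after LPS, at shares near those of all features: Ch25h, Idi1, Srebf2, Insig1 and Scap were higher at 4 h, and Abcg1, Stard4 and 8 enzymes lower. At 1 h none of the 26 members was called, against 2.15% of all features higher and 1.06% lower (limma). At an unadjusted p under 0.05, 2 were higher and 2 lower. With the replicate block 2 were called higher, Insig1 (0.40 ± 0.14, adjusted p = 0.182 without and 0.0322 with the block) and Ch25h (1.84 ± 0.60, 0.123 and 0.0394), against 3.35% of all features. Called lower were Msmo1 (-0.33 ± 0.14, adjusted p = 0.333 and 0.0232) and Npc2 (-0.27 ± 0.11, 0.269 and 0.0294), against 2.96%. At 2 h, 3 members rose and 5 fell, against 10% and 15.2% of all features. With the block, 6 rose and 8 fell, against 14% and 25%. The block added Idi1 (0.33 ± 0.15, adjusted p = 0.116 without and 0.0436 with it), Cyp51 (0.39 ± 0.29, 0.366 and 0.00869) and Hmgcs1, described below. Lower, it added Sqle (-0.47 ± 0.19, adjusted p = 0.0721 and 0.0046), Msmo1 (-0.35 ± 0.14, 0.0756 and 0.00301) and Ebp (-0.29 ± 0.13, 0.129 and 0.00213). The calls of Lss (-0.33 ± 0.11, adjusted p = 0.0392) and Sc5d (-0.32 ± 0.11, 0.0387) at 2 h ended when any of 5 and any of 4 single arrays was left out, with adjusted p up to 0.207 and 0.194. At 4 h, 5 rose and 10 fell, against 19.8% and 32.8% of all features, and 6 and 10 with the block, against 23.3% and 40.5%. The median change of the 26 members at 4 h was -0.23, beside -0.14 over all features.

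**Figure D1:**
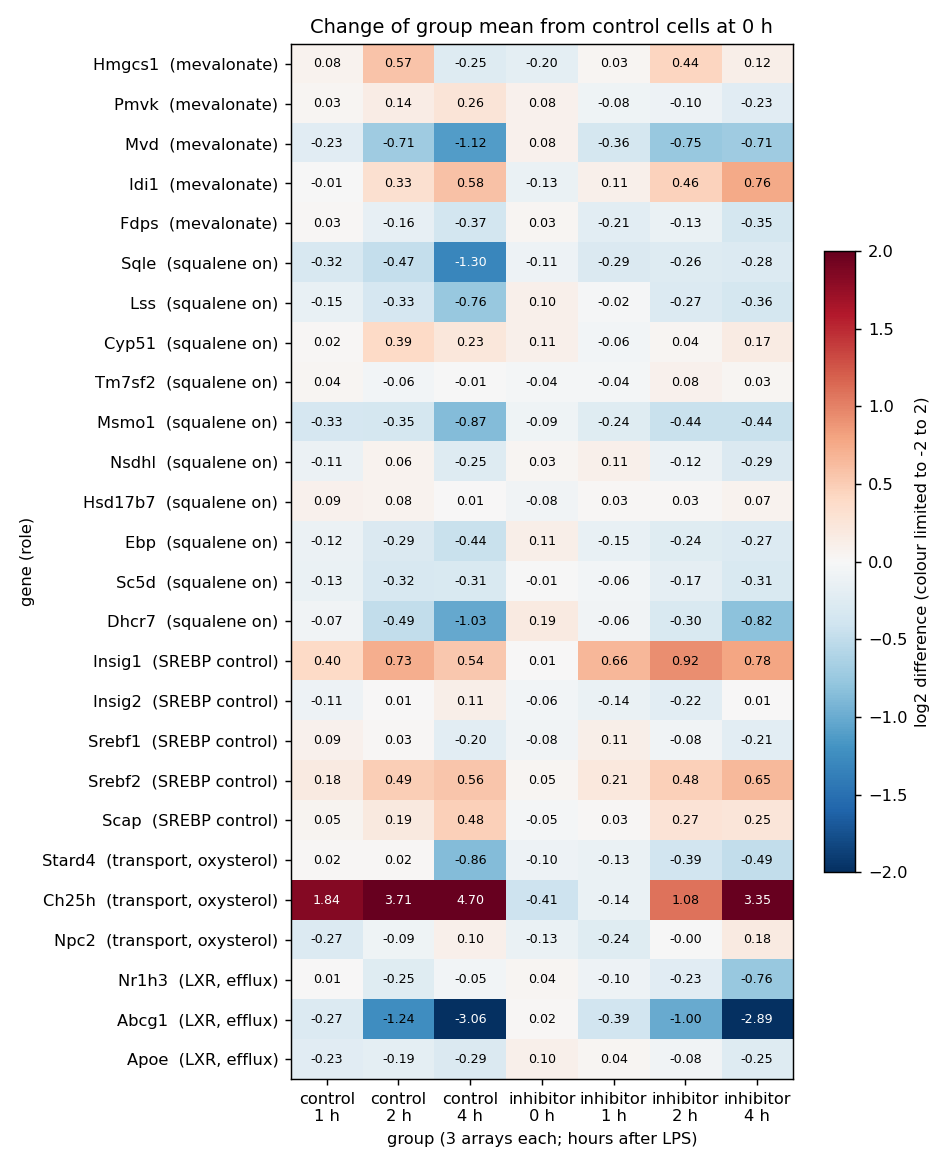
Difference of each group mean from control cells at 0 h (log2, colour and printed value) for the 26 tested members (rows, with their role) in the other 7 groups (columns, 3 arrays each). Ch25h and Abcg1 change most, and the enzymes Mvd, Sqle, Lss, Msmo1 and Dhcr7 are lowest in control cells at 4 h.

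The largest rise belonged to Ch25h, whose product represses SREBP processing and activates LXR. In control cells its level on the 3 arrays was 7.81, 9.24 and 10.26 at 0 h and 13.95, 13.44 and 14.01 at 4 h, a rise of 4.70 ± 0.60 (adjusted p = 1.62e-06). The groups did not overlap, but before LPS the 3 replicates lay far apart in both treatments. It had already risen by 3.71 ± 0.60 at 2 h (adjusted p = 8.86e-05).

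The largest fall belonged to Abcg1, an exporter that passes cholesterol to high-density lipoprotein and a target of LXR. Its control arrays read 10.35, 10.95 and 10.92 at 0 h, 9.03, 9.89 and 9.59 at 2 h and 7.24, 8.05 and 7.77 at 4 h. Every array was lower at each later of these times than any array of the earlier one. The change was -1.24 ± 0.30 at 2 h, with an adjusted p of 0.00439. By 4 h it was -3.06 ± 0.30 (adjusted p = 6.63e-08), a fold of 8.31. Between 2 and 4 h alone it fell by 1.81 on the log2 scale (adjusted p = 0.000143).

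No other LXR target on the list had a called fall in control cells at 4 h. Apoe, which carries cholesterol out of macrophages, stood at -0.29 ± 0.22 at 4 h and was not called (adjusted p = 0.272). Abca1, the exporter that loads apolipoprotein A, read 5.81 to 6.14 and Mylip, a ligase that marks lipoprotein receptors for degradation, 5.78 to 6.34 over the 24 arrays. Both lay below the floor on every array, so no fold is given for them. Nr1h3, the gene of the receptor LXR alpha, stood at -0.05 ± 0.14 in control cells at 4 h (adjusted p = 0.765).

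Among the enzymes from squalene onward, 6 of 10 fell in control cells at 4 h and none rose, where 32.8% of all features fell and 19.8% rose. Of the 6, Ebp and Sc5d were not called with arrays centred on housekeeping genes. Sqle, squalene epoxidase, a rate-controlling step of sterol synthesis, read 10.90, 10.56 and 10.52 at 0 h and 9.42, 9.15 and 9.49 at 4 h. The groups did not overlap, and the change was -1.303 ± 0.19 (adjusted p = 8.02e-06). A second, dimmer probe of Sqle gave -0.76 ± 0.415 and was not called (adjusted p = 0.134).

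Dhcr7, the reductase of a final step to cholesterol, read 8.62, 8.65 and 8.41 at 0 h, 8.044, 8.163 and 8.001 at 2 h and 7.50, 7.58 and 7.51 at 4 h. These 3 times did not overlap, and the gene had changed by -0.49 at 2 h (adjusted p = 0.00218). Its change at 4 h was -1.03 ± 0.11 (adjusted p = 1.73e-07). Msmo1, a methylsterol oxidase, read 11.25, 10.82 and 10.88 at 0 h and 10.14, 10.08 and 10.11 at 4 h, a change of -0.87 ± 0.14 (adjusted p = 3.36e-05). Its 4 h arrays lay close together and below all others of the control series.

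Lss, lanosterol synthase, which closes the sterol rings, changed by -0.76 ± 0.11 at 4 h (adjusted p = 1.34e-05). Ebp, a sterol isomerase, changed by -0.44 ± 0.13 (adjusted p = 0.0089) and Sc5d, a desaturase near the end of the pathway, by -0.31 ± 0.11 (adjusted p = 0.0244). The control arrays of Sc5d at 4 h read 6.33, 6.45 and 6.56, and 1 of 3 lay above the floor, as at 2 h. The size of its fall is therefore limited by the floor. The call of Ebp ended without control 4 h replicate 1 (adjusted p = 0.065), and that of Sc5d without control replicate 1 of 0 h (0.147) or of 4 h (0.105). Centred on housekeeping genes, Ebp stood at -0.18 and Sc5d at -0.04. The remaining enzymes of this group were not called, with changes of 0.23 ± 0.29 for Cyp51, which demethylates lanosterol, and -0.25 ± 0.23 for Nsdhl, a dehydrogenase of the same removal of methyl groups. The reductases Tm7sf2 and Hsd17b7 stood at -0.01 ± 0.11 and 0.01 ± 0.21.

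The mevalonate enzymes divided. Mvd, the decarboxylase that yields isopentenyl diphosphate, read 9.56, 9.26 and 9.04 at 0 h, 8.60, 8.55 and 8.58 at 2 h and 8.19, 8.19 and 8.14 at 4 h in control cells. Its change was -0.71 ± 0.18 at 2 h, with an adjusted p of 0.0054, and reached -1.12 ± 0.18 at 4 h (adjusted p = 3.14e-05). The 3 times did not overlap. Idi1, which isomerizes the product of Mvd, went the other way, from 6.67, 6.79 and 6.73 to 7.03, 7.26 and 7.65. It rose by 0.58 ± 0.15 (adjusted p = 0.00257), with every 4 h array above every 0 h array.

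Fdps, which joins these units to farnesyl diphosphate, changed by -0.37 ± 0.12 at 4 h (adjusted p = 0.0141). Its call ended without control 4 h replicate 1 (adjusted p = 0.0567), 4 h replicate 2 (0.0576) or 0 h replicate 3 (0.0735), and centred on housekeeping genes the change was -0.10. Hmgcs1, the synthase that makes the precursor of mevalonate, read 12.70, 12.51 and 12.17 at 0 h, 13.30, 12.64 and 13.13 at 2 h and 12.34, 12.19 and 12.09 at 4 h. It was up at 2 h in each replicate, by 0.57 ± 0.23, not called alone (adjusted p = 0.0824) and called with the replicate block (0.00854). From 2 to 4 h it fell by 0.82 ± 0.23 (adjusted p = 0.0116, and 0.0515 without control 2 h replicate 1). Pmvk, the kinase before Mvd, stood at 0.26 ± 0.14 at 4 h (adjusted p = 0.12, and 0.0136 with the block).

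Promoter sequence is shown for 5 of these enzymes because they moved in different ways beside each other in 1 pathway: Mvd, Msmo1 and Lss fell, Idi1 rose, and Hmgcs1 was the 1 member with a match to the sterol regulatory element. Each stretch holds the 250 bases before a RefSeq transcript start (build GRCm38.p6), written 5′ to 3′ on the gene's strand. Capitals mark matches on either strand to the sterol regulatory element TCACNCCAC, which SREBP binds, and to the CCAAT box (CCAAT, or ATTGG as read on the other strand), which NF-Y binds. Hmgcs1 lies at chr13:119690101-119690350 and Lss at chr10:76531355-76531604 and Idi1 at chr13:8885356-8885605, all on the plus strand. Mvd lies at chr8:122443423-122443672 and Msmo1 at chr8:64733579-64733828, both on the minus strand.
Hmgcs1: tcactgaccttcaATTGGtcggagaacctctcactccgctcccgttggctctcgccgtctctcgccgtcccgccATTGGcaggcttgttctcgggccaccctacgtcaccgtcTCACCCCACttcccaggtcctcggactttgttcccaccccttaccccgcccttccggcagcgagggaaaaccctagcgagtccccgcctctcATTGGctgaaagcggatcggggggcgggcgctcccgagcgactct
Mvd: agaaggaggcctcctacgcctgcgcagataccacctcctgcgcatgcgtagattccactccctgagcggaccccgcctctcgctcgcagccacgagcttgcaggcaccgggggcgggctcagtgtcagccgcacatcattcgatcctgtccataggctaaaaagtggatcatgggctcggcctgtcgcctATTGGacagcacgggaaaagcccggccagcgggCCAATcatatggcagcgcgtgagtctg
Msmo1: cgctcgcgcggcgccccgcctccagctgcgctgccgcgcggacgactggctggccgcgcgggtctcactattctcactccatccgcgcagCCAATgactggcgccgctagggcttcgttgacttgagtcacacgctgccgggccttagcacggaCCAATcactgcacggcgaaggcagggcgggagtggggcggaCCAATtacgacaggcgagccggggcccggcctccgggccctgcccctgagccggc
Lss: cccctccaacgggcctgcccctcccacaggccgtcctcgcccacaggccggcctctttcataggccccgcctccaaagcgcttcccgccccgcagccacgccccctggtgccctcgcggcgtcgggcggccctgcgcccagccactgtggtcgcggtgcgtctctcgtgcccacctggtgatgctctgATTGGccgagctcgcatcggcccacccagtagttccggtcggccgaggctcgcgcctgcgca
Idi1: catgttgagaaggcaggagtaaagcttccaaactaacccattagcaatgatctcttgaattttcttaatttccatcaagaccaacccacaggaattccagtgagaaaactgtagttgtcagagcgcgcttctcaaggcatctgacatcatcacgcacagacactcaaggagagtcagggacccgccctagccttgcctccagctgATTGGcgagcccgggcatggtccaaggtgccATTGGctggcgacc

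The sterol regulatory element of Hmgcs1 begins 137 bases before the start, between CCAAT boxes that begin 176 and 45 bases before it. Msmo1 and Hmgcs1 hold 3 CCAAT boxes each in the printed stretch, Mvd and Idi1 hold 2 and Lss holds 1, and in these 5 stretches no match overlaps another. RefSeq windows (250 bases before to 50 after a start) were found for 24 of the 28 members with a probe, the exceptions being Abcg1, Fdps, Sqle and Stard4. A CCAAT box stood in 19 of these 24 genes (79.2%), beside 41.1% of 27025 genes with a window. The sterol regulatory element stood in 1 of 24 (4.17%), beside 1.44% of genes, and 1.24% of 32851 windows. The GC box GGGCGG, which Sp1 binds and which was searched on both strands, stood in 20 of 24 (83.3%), beside 38.2%. The 27025 genes were not limited to those above the floor on these arrays, and the shares among tested genes are not given here. The 24 genes had 35 windows in all, 7 of them with several starts, and genes with more starts have more chances of a match. A match of letters is a description and not a measured binding site, and no match says only that these letters are not in the window. The genes that fell and the gene that rose both carried CCAAT boxes.

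**Figure D2:**
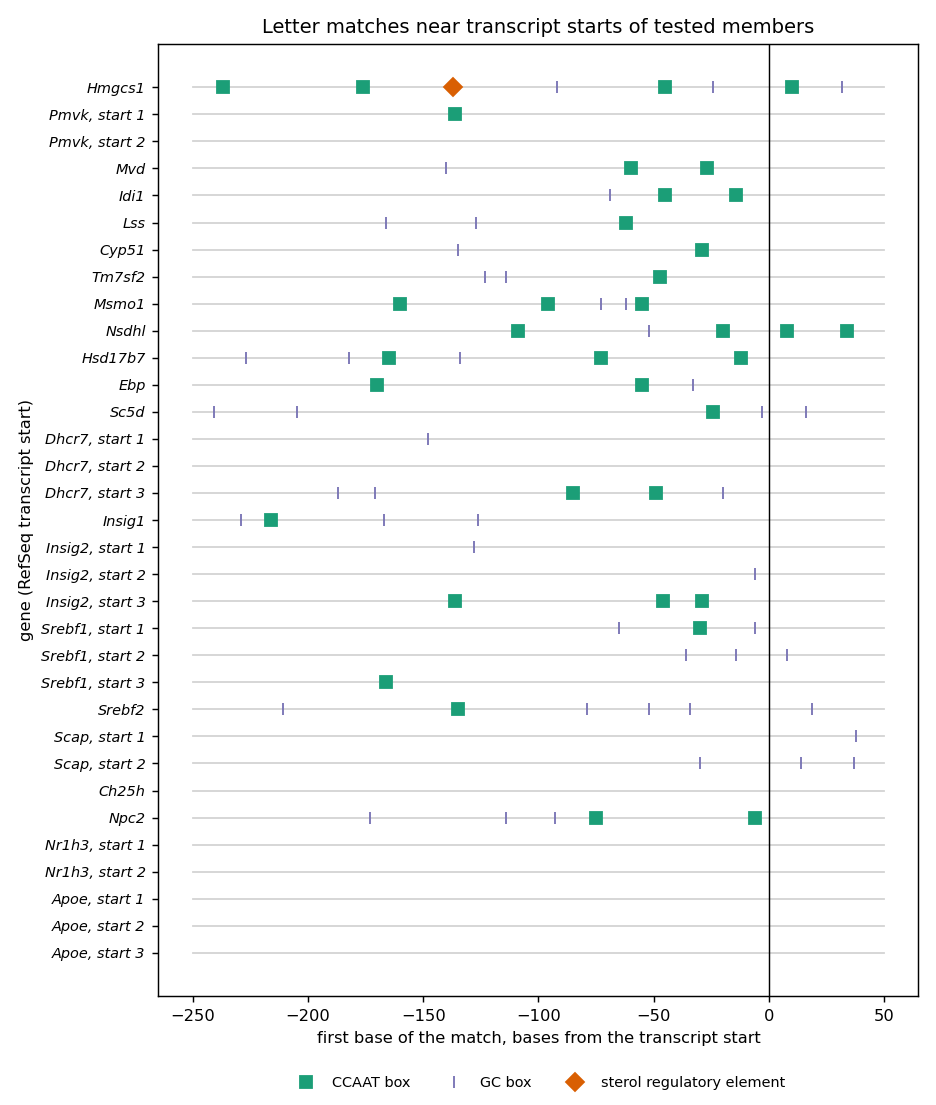
First base of each letter match (CCAAT box, GC box, sterol regulatory element) against distance from the RefSeq transcript start (bases), 1 row per start of the tested members that have a window. CCAAT boxes cluster within the 100 bases before many synthesis-gene starts, and the windows of Ch25h, Nr1h3 and Apoe show no match to any of the 3 motifs.

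Of the SREBP control genes, 3 of 5 rose in control cells at 4 h and none fell, where 19.8% of all features rose and 32.8% fell. Insig1, the sterol-regulated anchor that holds SREBP back, read 8.40, 8.33 and 8.15 at 0 h, 9.21, 8.78 and 9.06 at 2 h and 8.91, 8.84 and 8.76 at 4 h. It was highest at 2 h, when it had risen by 0.73 ± 0.14 (adjusted p = 0.000626), and stood 0.54 ± 0.14 above 0 h at 4 h (adjusted p = 0.00297). Other probes of Insig1 gave changes of 0.75 ± 0.30 and 0.68 ± 0.29 at 2 h, neither called (adjusted p = 0.0811 and 0.103). At 4 h they gave 0.80 ± 0.30 (adjusted p = 0.031) and 0.44 ± 0.29 (0.219, not called), so the first of them was not highest at 2 h.

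Srebf2, the SREBP that mainly drives cholesterol synthesis, read 8.54, 8.49 and 8.40 at 0 h, 9.02, 8.81 and 9.08 at 2 h and 8.97, 9.003 and 9.14 at 4 h. The 0 h arrays lay below all later ones at 2 and 4 h, and the rise at 2 h was 0.49 ± 0.09 (adjusted p = 0.000378). At 4 h it was 0.56 ± 0.09 (adjusted p = 3.32e-05). Scap, the escort of SREBP, read 7.67, 7.69 and 7.85 at 0 h and 8.20, 8.27 and 8.19 at 4 h. It rose by 0.48 ± 0.10 (adjusted p = 0.000382), without overlap. Srebf1, which mainly drives fatty acid synthesis, stood at -0.20 ± 0.11 and Insig2, the second anchor gene, at 0.11 ± 0.09, and neither was called.

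Stard4, a soluble carrier of cholesterol between membranes, stood at 0.02 ± 0.20 at 2 h and fell after that. Its control arrays read 8.82, 9.23 and 9.24 at 2 h and 7.78, 8.33 and 8.53 at 4 h, below every earlier control array. The change from 2 to 4 h was -0.89 ± 0.20 (adjusted p = 0.00206) and that from 0 to 4 h -0.86 ± 0.20 (adjusted p = 0.00109). Npc2, which hands cholesterol out of the lysosome, stood at 0.10 ± 0.11.

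In control cells 2 members rose and 2 fell between 1 and 2 h, against 6.17% and 7.01% of all features, and 5 rose and 3 fell with the replicate block, against 10.2% and 13%. The block added Hmgcs1 (0.49 ± 0.23, adjusted p = 0.2 without and 0.0329 with it), Cyp51 (0.38 ± 0.29, 0.492 and 0.0184) and Insig1 (0.33 ± 0.14, 0.15 and 0.0363), higher, and Mvd (-0.49 ± 0.18, 0.0862 and 0.00495), lower. The 4 calls made without the block (Ch25h and Srebf2 up, Abcg1 and Dhcr7 down) all ended without control 2 h replicate 1, 2 h replicate 3 or 1 h replicate 2. Between 2 and 4 h, 1 rose and 7 fell, against 13.4% and 14.9%, and 2 and 8 with the block, against 18.5% and 24.3%. The block added Npc2 (0.20 ± 0.11, adjusted p = 0.177 without and 0.0334 with it) and Mvd (-0.40 ± 0.18, 0.103 and 0.00956). The 7 were Hmgcs1, Sqle, Lss, Msmo1, Dhcr7, Stard4 and Abcg1, and the median of the 26 members over this interval was -0.16, beside -0.06 over all features. The call of Sqle ended with its probes averaged (adjusted p = 0.0865), that of Lss with housekeeping centring (0.0596) and that of Msmo1 with cyclic loess (0.0609). Scap was the 1 that rose, by 0.30 ± 0.10 (adjusted p = 0.0307), a call that ended when any of 5 arrays of these 2 groups was left out, with adjusted p up to 0.0921.

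The levels of 12 members on every array are shown for both treatments.

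**Figure D3:**
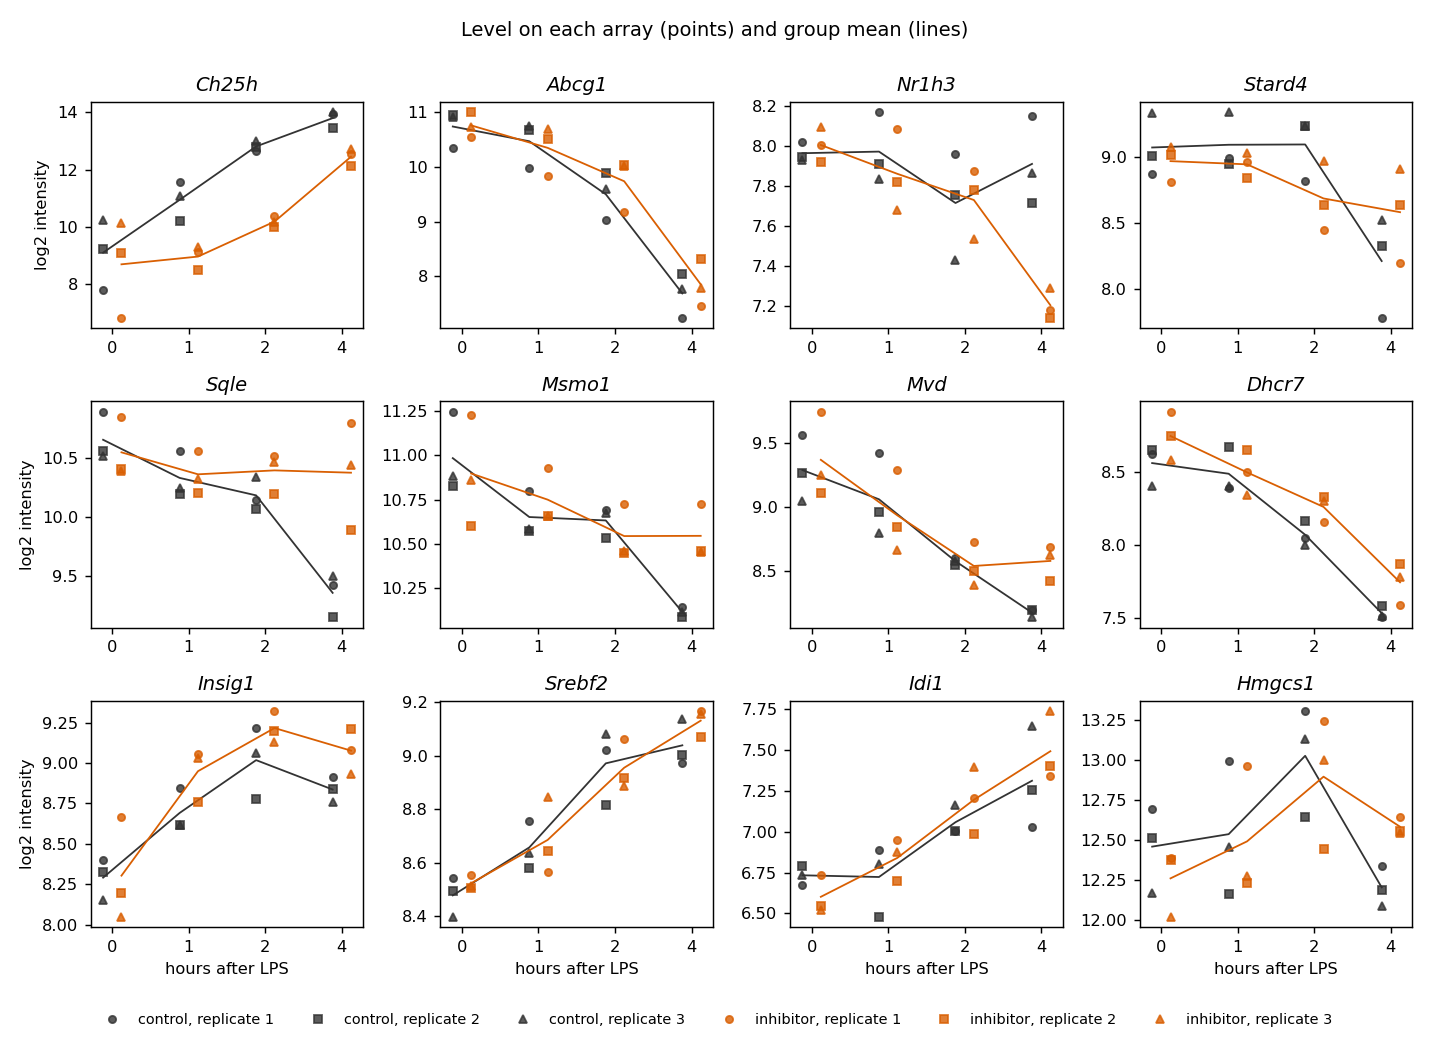
Level (log2 intensity) of 12 members on each of the 24 arrays against hours after LPS, with symbols for the replicate number and lines through the group means of control (dark) and inhibitor-treated (orange) cells. Ch25h of treated cells lies below control at 1, 2 and 4 h, Sqle of treated cells stays above 9.8 at 4 h, and Nr1h3 of treated cells drops to 7.14 to 7.29 at 4 h.

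In inhibitor-treated cells Ch25h and Abcg1 again had the largest rise and fall after LPS at 4 h. At 1 h 1 member rose and 0 fell, against 1.73% and 1.48% of all features. With the block 1 rose and 3 fell, against 2.73% and 4.06%, the 3 being Mvd (-0.44 ± 0.18, adjusted p = 0.309 without and 0.0301 with it), Ebp (-0.26 ± 0.13, 0.482 and 0.0244) and Abcg1 (-0.41 ± 0.30, 0.734 and 0.0377). At an unadjusted p under 0.05, 2 were lower. At 2 h 4 rose and 4 fell, against 7.4% and 10.5%, and 6 and 6 with the block, against 11.9% and 17.9%. At 4 h 6 rose and 9 fell, against 19.7% and 26.7%, and 6 and 13 with the block, against 24.6% and 34.6%. The block added Pmvk (-0.31 ± 0.14, adjusted p = 0.0746 without and 0.00507 with it), Nsdhl (-0.33 ± 0.23, 0.258 and 0.0409), Stard4 (-0.39 ± 0.20, 0.116 and 0.00639) and Apoe (-0.35 ± 0.22, 0.193 and 0.027), all lower. The median of the 26 members at 4 h was -0.235 in treated cells, beside -0.06 over all features.

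The 4 that rose at 2 h were Insig1, Idi1, Srebf2 and Scap, and the 4 that fell were Abcg1, Mvd, Dhcr7 and Lss. Insig1 rose by 0.91 ± 0.14 (adjusted p = 8.55e-05), and Ch25h stood at 1.49 ± 0.60 (adjusted p = 0.0929, and 0.0365 with the block). The block also added Hmgcs1 (0.63 ± 0.23, adjusted p = 0.0648 without and 0.0053 with it), higher, and Msmo1 (-0.355 ± 0.14, 0.0929 and 0.00404) and Ebp (-0.35 ± 0.13, 0.0782 and 0.000504), lower. The fall of Abcg1 at 2 h, -1.02 ± 0.30 (adjusted p = 0.0226), ended without inhibitor 2 h replicate 1 (0.142) or 0 h replicate 2 (0.095) or 3 (0.0565), and the fall of Lss and the rise of Scap ended when any of 4 and any of 5 single arrays was left out.

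At 4 h all 5 members that rose in control cells also rose in treated cells, and 8 of the 10 that fell also fell. Of all features that rose in control cells at 4 h, 67.1% also rose in treated cells, and of those that fell 65.2% also fell. Of those that rose or fell in treated cells, 67.6% and 79.9% were called the same way in control cells, beside 5 of 6 and 8 of 9 members. Each treatment was compared with its own 0 h arrays, but control and treated arrays of the same number deviated together. Ch25h read 6.83, 9.10 and 10.16 at 0 h and 12.54, 12.12 and 12.71 at 4 h in treated cells, a rise of 3.76 ± 0.60 (adjusted p = 3.55e-05). Abcg1 went from 10.54, 11.01 and 10.74 to 7.46, 8.32 and 7.79, a change of -2.91 ± 0.30 (adjusted p = 1.95e-07). Dhcr7 changed by -1.002 ± 0.11 (adjusted p = 3.66e-07), Mvd by -0.79 ± 0.18 (0.00128) and Idi1 by 0.89 ± 0.15 (5.67e-05). Insig1 rose by 0.77 ± 0.14 (adjusted p = 0.000161) and Srebf2 by 0.61 ± 0.09 (1.87e-05). The other probes of Insig1 gave 0.62 ± 0.30 and 0.60 ± 0.29 in treated cells at 4 h, neither called (adjusted p = 0.101 and 0.104). Insig1 was also the 1 call of treated cells at 1 h, with a rise of 0.65 ± 0.14 (adjusted p = 0.0106), which ended without inhibitor 1 h replicate 1 (0.073) or 3 (0.0656) or 0 h replicate 2 (0.0604) or 3 (0.0969).

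Several calls of treated cells at 4 h did not hold when single arrays were left out. Scap rose by 0.29 ± 0.10 (adjusted p = 0.0216), a call ended by leaving out any of 4 arrays (0.134 without 4 h replicate 2). Npc2, called in treated cells and not in control cells, rose by 0.31 ± 0.11 (adjusted p = 0.0221). That call ended when any of 3 arrays was left out (0.111 without 0 h replicate 2), and the difference between treatments was not called (adjusted p = 0.499). Centred on housekeeping genes, Npc2 was called higher in control cells too (0.37, adjusted p = 0.00608). Msmo1 changed by -0.35 ± 0.14 (adjusted p = 0.0468), a call that ended when any of 17 single arrays was left out and with arrays centred on housekeeping genes (0.0878) or by cyclic loess (0.287). The call of Ebp ended when any of 3 arrays was left out (0.136 without 4 h replicate 1), with housekeeping centring and with cyclic loess. That of Fdps ended when either of 2 was left out (0.0719 without 4 h replicate 2) and with cyclic loess. That of Sc5d ended when any of 5 was left out (0.0953 without 0 h replicate 1) and with housekeeping centring. Sc5d lay above the floor on 1 of 3 treated arrays at 4 h.

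**Figure D4:**
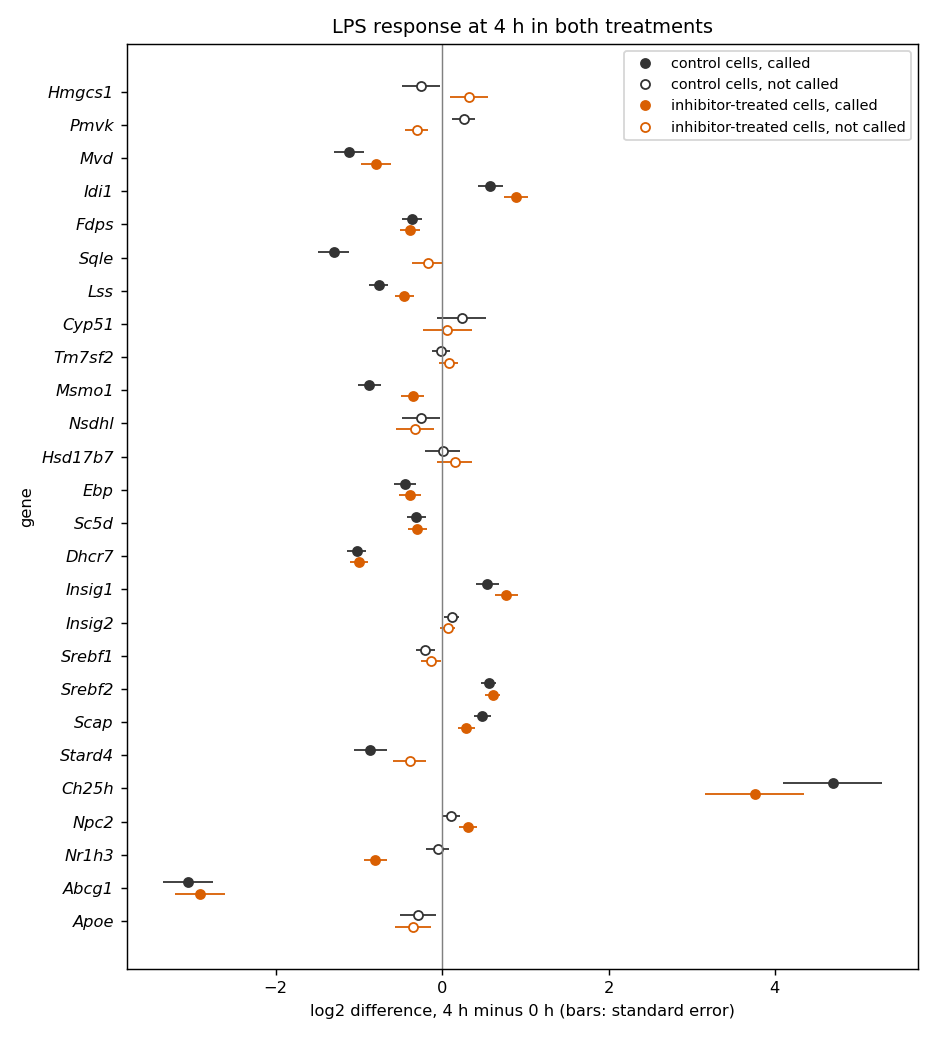
LPS response at 4 h (log2 difference from 0 h, 3 arrays against 3) of the 26 tested members in control (dark) and inhibitor-treated (orange) cells. Bars are standard errors from the spread shared by all groups, and filled points were called. Abcg1 and Ch25h lie at the ends in both treatments, while Sqle is near -1.303 in control cells and -0.17 in treated cells and Nr1h3 is near -0.05 and -0.80.

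The difference of the LPS responses, treated minus control, was tested directly. At 1 h 0 members were called (0.0244% of all features higher and 0% lower) and at 2 h 0 members (0.232% and 0.646%), by limma. At an unadjusted p under 0.05 the counts were 0 at 1 h and 1 at 2 h. With the block 0 members were called at either time, against 0.061% and 0.0975% of all features at 1 h and 1.02% and 1.98% at 2 h. At 4 h 1 member was called higher and 1 lower, against 4.17% and 3.85% of all features, and 3 and 2 with the replicate block, against 9.49% and 7.88%.

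The member called higher was Sqle. In treated cells it read 10.85, 10.41 and 10.39 at 0 h and 10.80, 9.89 and 10.45 at 4 h, a change of -0.17 ± 0.19 that was not called, where control cells fell by 1.303. The difference was 1.13 ± 0.27 (adjusted p = 0.011, and 0.000156 with the block). Its second probe gave a difference of 0.33 ± 0.59 (adjusted p = 0.864), and with both probes averaged the call ended (0.73, adjusted p = 0.294).

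The member called lower was Nr1h3. Treated cells read 8.01, 7.92 and 8.09 at 0 h and 7.18, 7.14 and 7.29 at 4 h, a fall of 0.80 ± 0.14 without overlap (adjusted p = 9.65e-05), where control cells stood at -0.05. The difference was -0.75 ± 0.20 (adjusted p = 0.0221, and 0.00185 with the block). It ended without control 4 h replicate 1 (adjusted p = 0.0659), inhibitor 4 h replicate 2 (0.0507) or inhibitor 0 h replicate 3 (0.0577), and with its 2 probes averaged (0.0564). Among the 9 macrophage markers 2 were also called lower in this difference, beside 3.85% of all features, and their part in the result was not tested. The second probe of Nr1h3, whose mean of 6.47 is close to the floor, gave -0.19 ± 0.15 (adjusted p = 0.579). With the block Msmo1 (0.52, adjusted p = 0.00569) and Stard4 (0.47, 0.0465) were also called higher and Pmvk (-0.57, 0.0031) lower, where without it the adjusted p was 0.126, 0.367 and 0.0818.

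Set directly against control cells at the same time, the inhibitor changed few members before 4 h. Without LPS (0 h) limma called 0 of the 26, none passed an unadjusted p under 0.05 and none was called with the block, beside 0.159% of all features higher and 0% lower (0.28% and 0% with the block). At 1 h limma called 0, beside 0.524% and 0.78%, with 1 lower at an unadjusted p under 0.05 and 1 lower with the block (Ch25h), beside 0.805% and 1.72%. At 2 h 0 rose and 1 fell, beside 2.72% and 4.22%, and 0 and 3 with the block, beside 6.29% and 7.77%. At 4 h 3 rose and 2 fell, beside 12.6% and 10.2%, and 5 and 3 with the block, beside 19.7% and 15.4%. These shares are near those of the members. The median inhibitor effect of the 26 at 4 h was 0.07, beside 0.04 over all features.

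Ch25h was the member lowered at 2 h. Control arrays read 12.66, 12.78 and 13.00 and treated arrays 10.39, 10.00 and 10.18, a difference of -2.62 ± 0.60 (adjusted p = 0.00798). Every control array lay well above every treated array. At 1 h control arrays read 11.56, 10.21 and 11.08 and treated arrays 9.11, 8.503 and 9.29, again without overlap, with a difference of -1.98 ± 0.60 (adjusted p = 0.156, and 0.0481 with the block).

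At 4 h the control arrays of Ch25h (13.95, 13.44 and 14.01) still lay above the treated arrays (12.54, 12.12 and 12.71). The difference was -1.35 ± 0.60 (adjusted p = 0.115, 0.0513 with the block and 0.0301 without inhibitor 0 h replicate 1, whose 6.83 lay lowest of all arrays). Before LPS the difference was -0.41 ± 0.60, with overlap. The difference of its LPS responses was not called at any time (-2.22 ± 0.84 at 2 h, adjusted p = 0.372). The spread of the 0 h arrays enters the standard error of this test and of the inhibitor effects at 1, 2 and 4 h alike. The standard deviation of Ch25h in control and treated cells was 1.23 and 1.70 at 0 h, but 0.31 and 0.30 at 4 h. Averaged over the 4 times, Ch25h was lower by 1.59 ± 0.30 (adjusted p = 0.000667).

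The 3 members raised at 4 h were enzymes from squalene onward, each of which LPS had lowered in control cells, a comparison that shares the control 4 h arrays with this one. Sqle read 9.42, 9.15 and 9.49 in control cells and 10.80, 9.89 and 10.45 in treated cells, a difference of 1.02 ± 0.19 (adjusted p = 0.000447), or a fold of 2.03. All treated arrays lay above all control arrays, and the call held without any single array. The second probe stood at 0.50 ± 0.415 and was not called (adjusted p = 0.462).

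Msmo1 read 10.14, 10.08 and 10.11 in control and 10.72, 10.46 and 10.45 in treated cells, a difference of 0.43 ± 0.14 (adjusted p = 0.0313). Lss read 7.37, 7.53 and 7.66 in control and 7.81, 7.99 and 7.97 in treated cells, a difference of 0.40 ± 0.11 (adjusted p = 0.0136). Neither gene's groups overlapped. Both calls ended with arrays centred on housekeeping genes (adjusted p of 0.12 for Msmo1 and 0.0938 for Lss) and with cyclic loess (0.154 and 0.0519). That of Msmo1 ended without control 4 h replicate 1 (0.0641), 2 (0.0792) or 3 (0.0712) or inhibitor 4 h replicate 1 (0.133). That of Lss ended without control 4 h replicate 1 (0.0785) or inhibitor 4 h replicate 2 (0.0522) or 3 (0.0506). With the replicate block Mvd (0.41 ± 0.18, adjusted p = 0.118 without and 0.011 with the block) and Stard4 (0.37 ± 0.20, 0.202 and 0.0151) joined them.

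Hmgcs1 stood at 0.38 ± 0.23 (adjusted p = 0.278), Dhcr7 at 0.21 ± 0.11 (0.19) and Insig1 at 0.24 ± 0.14 (0.251), none of them called. Their 4 h arrays did not overlap between treatments, for Dhcr7 narrowly (control up to 7.58, treated from 7.586). Nor did those of Mvd, which leaned higher, or of Ch25h and Scap, which leaned lower. The share of all features without overlap is not given here. Abcg1, the member that fell most after LPS, stood at 0.17 ± 0.30 (adjusted p = 0.771), with overlapping arrays. For Abcg1 this misses the threshold and does not show that both treatments act alike.

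The members lowered at 4 h were Nr1h3 and Pmvk. Nr1h3 read 8.15, 7.72 and 7.87 in control and 7.18, 7.14 and 7.29 in treated cells, a difference of -0.71 ± 0.14 (adjusted p = 0.000871) without overlap. Its second probe stood at -0.19 ± 0.11 (adjusted p = 0.248). Pmvk read 7.41, 7.54 and 7.76 in control and 6.80, 7.27 and 7.17 in treated cells, a difference of -0.49 ± 0.14 (adjusted p = 0.0138). That call ended without inhibitor 4 h replicate 1 (0.0891) or control 4 h replicate 3 (0.0776). Scap stood at -0.24 ± 0.10 (adjusted p = 0.0912, and 0.0392 with the block), and was called with arrays centred on housekeeping genes (0.0172). A second probe of Insig2 was called lower by 0.47 ± 0.10 (adjusted p = 0.00192), where the probe used for the gene stood at -0.10 ± 0.09 (0.498).

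At 2 h the block added Stard4 (-0.41 ± 0.20, adjusted p = 0.287 without and 0.0186 with it) and Cyp51 (-0.35 ± 0.29, 0.612 and 0.0423) to the members lowered. Stard4 thus read below control at 2 h and above it at 4 h, in 3 of 3 replicate pairs each time. Averaged over 0, 1, 2 and 4 h, the inhibitor raised 2 members and lowered 1, beside 9.4% and 9.56% of all features, and 4 and 3 with the block, beside 16.2% and 14.6%. The block added Dhcr7 (0.15 ± 0.06, adjusted p = 0.0643 without and 0.015 with it) and Insig1 (0.18 ± 0.07, 0.0887 and 0.0177), higher, and Pmvk (-0.19 ± 0.07, 0.06 and 0.00228) and Nr1h3 (-0.19 ± 0.07, 0.0616 and 0.0106), lower. Without the block, the members called besides Ch25h were Sqle (0.29 ± 0.09, adjusted p = 0.0341) and Lss (0.17 ± 0.06, 0.0395), calls that ended when any of 13 and any of 16 single arrays was left out.

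**Figure D5:**
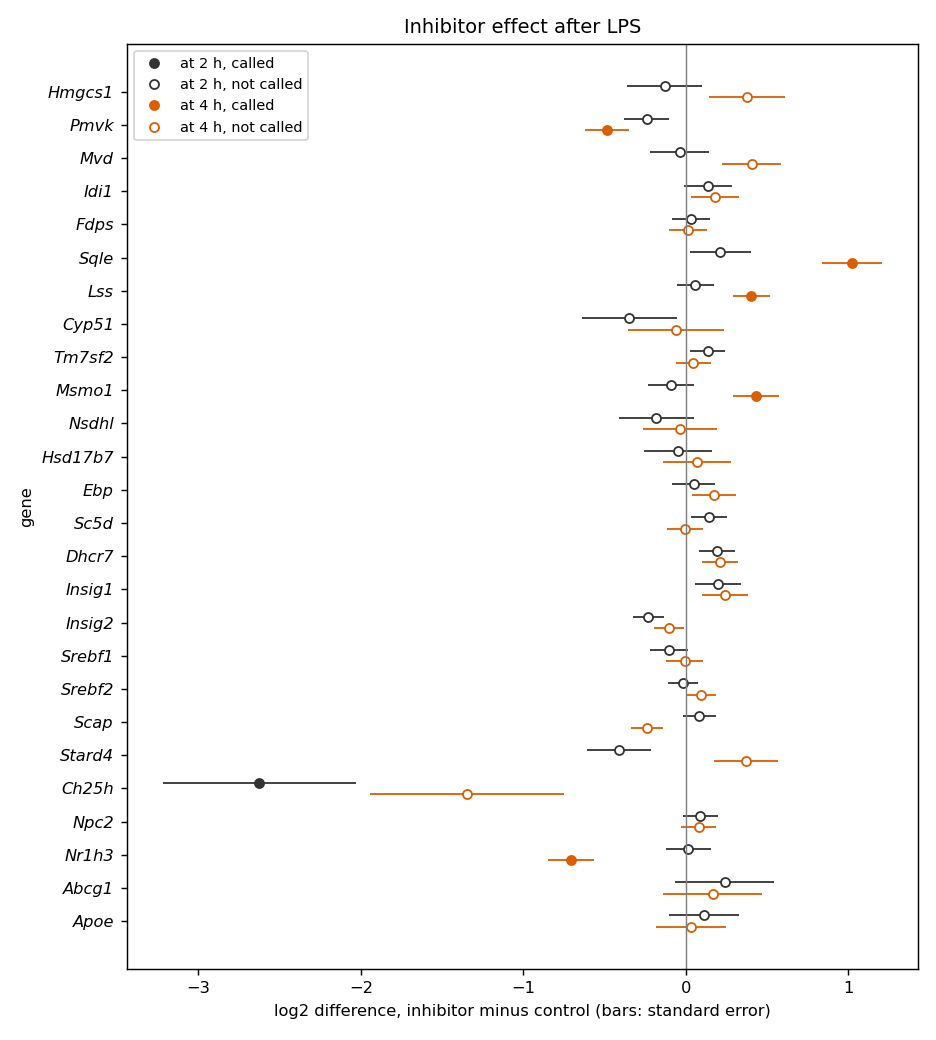
Inhibitor effect (log2 difference, inhibitor minus control, 3 arrays against 3) of the 26 tested members at 2 h (dark) and 4 h (orange) after LPS. Bars are standard errors from the spread shared by all groups, and filled points were called. Ch25h stands at -2.62 at 2 h, and at 4 h Sqle stands at 1.02 and Nr1h3 at -0.71.

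Other genes of these pathways were read from lists chosen with earlier results of these data known. For reading the counts, 19.8% of all features rose and 32.8% fell in control cells at 4 h, and the inhibitor raised 12.6% and lowered 10.2% at that time. Of 11 tested genes of other sterol and isoprenoid synthesis, 1 rose and 7 fell in control cells at 4 h, with a median of -0.37, and the inhibitor raised 3 and lowered none. Aacs, which supplies acetyl units to sterol synthesis, read 9.91, 9.92 and 9.45 at 0 h and 9.179, 8.945 and 8.939 at 4 h in control cells, and 9.99, 9.71 and 9.62 and then 9.96, 9.86 and 9.78 in treated cells. The change was -0.74 ± 0.15 in control cells (adjusted p = 0.000451) and 0.09 ± 0.15 in treated cells (0.651), and the difference was itself called (0.84 ± 0.22, adjusted p = 0.0215).

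Of 16 fatty acid genes under SREBP and LXR, 9 fell and none rose in control cells at 4 h, with a median of -0.48, and the inhibitor raised 3 and lowered none. Lpin1, a phosphatase of lipid synthesis, fell most in control cells (adjusted p = 2.37e-08), from 8.22, 7.83 and 7.77 to levels below the floor on all 3 arrays, so no fold is given. Acsl3, which activates fatty acids, was the gene raised most by the inhibitor (0.69 ± 0.14, adjusted p = 0.00104). Of 22 genes of sterol uptake, handling and efflux, 6 rose and 8 fell in control cells at 4 h, shares near those of all features. Gramd1b, a carrier of cholesterol from the plasma membrane, rose most (1.62 ± 0.18, adjusted p = 2.73e-07), and Pparg, a nuclear receptor of macrophage lipid handling, fell most (-2.76 ± 0.18, 2e-10). The inhibitor lowered 3 of the 22 and raised none, Gramd1b most (-1.11 ± 0.18, adjusted p = 0.000127). Of 8 genes of SREBP processing and degradation, 1 rose and 2 fell in control cells at 4 h, and the inhibitor lowered 1, Rnf139, a ubiquitin ligase of the sterol-sensing membrane (-0.46 ± 0.12, adjusted p = 0.00648).

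The scaling of the arrays bears on the balance of these counts. At 2 h of LPS in control cells, the 3 members higher and 5 lower became 6 and 3 with arrays centred on housekeeping genes and 4 and 3 with cyclic loess, while the share of all calls that were higher went from 39.7% to 63.8% and 52.2%. With arrays centred on 6 housekeeping genes, of which 2 were themselves called lower by LPS in control cells at 4 h and 1 called higher with the inhibitor, the median of all features moved by 0.26 for LPS at 4 h in control cells and by -0.14 for the inhibitor at 4 h. The share of calls that were higher went from 37.7% to 69% for LPS and from 55.2% to 27.7% for the inhibitor, and with cyclic loess to 53.4% and 40.7%. Among members, LPS in control cells at 4 h then gave 8 higher and 7 lower with centring and 8 and 8 with loess, and the inhibitor 1 and 3 with either. Under both, the 5 rises and the falls of Mvd, Sqle, Lss, Msmo1, Dhcr7, Stard4 and Abcg1 after LPS stayed called in the same direction, as did Sqle, Nr1h3 and Pmvk for the inhibitor.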

How the data were processed

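Levels are the authors' deposited processed values, read as log2 intensity from their range, with nearly the same ranked values on every array; the submitters' processing notes name limma, without a version, and no label says whether background was subtracted. A deposited non-normalized table was not used, since no label pairs its 72 columns with samples, so a slide block was not run. The members and all lists were chosen with earlier results of these data known.

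From the deposited values, the floor was the 99th percentile of 1304 olfactory and vomeronasal receptor probes, and 10887 of 25697 probes passed it. Each gene kept its brightest probe, which left 8201 features. A linear model of the 8 group means (limma 3.58.1, R 4.3.3, 16 residual degrees of freedom) was fitted with empirical Bayes moderation over all features. Replicates are called biological in the design text, and the p-values measure the spread between these arrays, whose number limits the precision. Same-numbered arrays deviated together, with correlations of 0.106 to 0.847 over 28 pairs per number, beside -0.859 to 0.358 between different numbers. The latter include arrays of the same group, whose deviations cancel out by calculation. Every member was named whatever its result; of each other list, the called genes with the largest rise and fall were named, and any gene beyond these was chosen after its values were seen. Alternatives were the filter, the mean of a gene's probes, centring on housekeeping genes, cyclic loess, background subtraction, the replicate block and leaving out each array. Leaving out all of replicate 1 was chosen after seeing the data. The fit was also run on simulated data with independent noise on each array, which cannot test the effect of deviations shared by same-numbered arrays. Promoter sequences are RefSeq's, build GRCm38.p6.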

Additional observations from a re-analysis of the deposited data

Results flagged for a closer look

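Of the members and the listed genes of related pathways, 5 differed between treatments in their LPS response at 4 h by the test of the difference itself (limma, adjusted over 8201 features). These 5 are named because they were called. Of all features, 4.17% were called higher and 3.85% lower in this comparison. The calls of Sqle and Nr1h3 ended when the probes of each gene were averaged. For Sqle the difference, treated minus control, was 1.13 (adjusted p = 0.011), and for Aacs it was 0.84 (0.2187 standard error, adjusted p = 0.0215): both fell after LPS in control cells and were not called in treated cells. The same held for Fnta, the alpha subunit of protein farnesyltransferase, at 0.53 (adjusted p = 0.0116), with -0.56 ± 0.09 in control cells and -0.03 ± 0.09 in treated cells. For Nr1h3 it was -0.75 (adjusted p = 0.0221), with a fall called in treated cells. For Gramd1b it was -0.98 (adjusted p = 0.0208), with a rise of 1.62 in control cells and of 0.65 in treated cells. Groups of 3 arrays were too small for the test of single outlying samples.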

How the results depend on the processing

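Of 70 calls of members over the 16 comparisons, the replicate block kept 70 and added 41. Arrays centred on housekeeping genes lost 13 and added 13, cyclic loess lost 13 and added 10, no filter on dim probes lost 7, the mean of a gene's probes lost 5 and added 4, and background subtraction lost 3 and added 1. The cause of these changes was not tested. Among values called in the main fit or under an alternative, 1 turned its direction, and it was not among the 70 calls. Sign changes of values called in neither were not counted. The LPS response of Insig2 in treated cells at 4 h was 0.07 ± 0.09 with the probe used, not called, and -0.19 with its probes averaged. The other kept probe of Insig2 gave -0.45 ± 0.10 (limma over all kept probes, adjusted p = 0.000998). With the block, the number of members called became 1 for the inhibitor at 1 h, 3 at 2 h, 8 at 4 h and 7 averaged over times. It became 4 and 14 for LPS at 1 and 2 h in control cells, 4 at 1 h in treated cells, 5 for the difference at 4 h and 8 for control cells from 1 to 2 h. With probes averaged it became 2 for the inhibitor at 2 h, 0 for treated cells at 1 h and 0 for the difference at 4 h. Without the filter it became 1 for the averaged inhibitor effect and 2 for control cells from 1 to 2 h, as with background subtraction, and with housekeeping genes 1 for LPS at 1 h in control cells. Leaving out 1 array, or all of replicate 1, gave 0 to 0 members for the inhibitor at 0 h, 0 to 1 at 1 h, 1 to 1 at 2 h, 3 to 7 at 4 h and 1 to 5 averaged. It gave 0 to 1, 6 to 9 and 12 to 16 for LPS at 1, 2 and 4 h in control cells and 0 to 2, 5 to 9 and 11 to 15 in treated cells. It gave 0 to 0, 0 to 1 and 1 to 4 for the difference at 1, 2 and 4 h, 0 to 4 for control cells from 1 to 2 h and 7 to 9 from 2 to 4 h. The low ends at 4 h came without control 4 h replicate 1, among others, for the inhibitor and for the difference. A slide block was not run. Signal over background limits what can be said of Abca1 and Mylip, which lay below the floor throughout. It also limits Sc5d, which lay above it on 17 of 24 arrays and on 1 of 3 at 4 h in each treatment.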

Other observations

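In treated cells the lists of related pathways moved as follows at 4 h of LPS, where 19.7% of all features rose and 26.7% fell. Of 22 genes of sterol uptake, handling and efflux, 5 rose and 6 fell (limma), shares near those of all features. Stard5, a carrier of cholesterol and bile acids, rose most, from 8.76, 8.575 and 8.73 to 10.12, 10.01 and 9.97 (1.34 ± 0.17, adjusted p = 2.74e-06). In control cells it rose by 1.38 ± 0.17, and the difference between treatments was -0.04 ± 0.24, not called (adjusted p = 0.965). Pparg fell most in treated cells, from 9.82, 10.39 and 10.17 to 7.12, 7.39 and 6.94, without overlap (adjusted p = 1.17e-10).

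Of 11 genes of other sterol and isoprenoid synthesis, 1 rose and 4 fell in treated cells at 4 h, where 1 rose and 7 fell in control cells, and for 2 of the 11 (Aacs and Fnta) the difference between treatments was called higher, beside 4.17% of all features. Nus1, a subunit of the enzyme that makes dolichol precursors, rose most in both treatments (0.52 ± 0.14 in control cells, adjusted p = 0.00429, and 0.61 ± 0.14 in treated cells, 0.0015). Fntb, the beta subunit of farnesyltransferase, fell most in treated cells (-0.61 ± 0.09, adjusted p = 1.5e-05). Of 16 fatty acid genes 8 fell and none rose in treated cells. Of 8 genes of SREBP processing and degradation 2 rose and 2 fell there, with Fbxw7, a ubiquitin ligase subunit that targets SREBP, highest at 0.44 ± 0.16 (adjusted p = 0.0335).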
